A study of Homo sapiens with 4 samples.

Results

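The genes described here are 9 transcriptional targets of the tumour suppressor p53, namely MDM2, CDKN1A, GDF15, SESN1, SESN2, RRM2B, FAS, TP53INP1 and PHLDA3. They were chosen by name from the 47251 genes of the deposited table, in which each has 1 row. RNA was sequenced from AGS, a human gastric adenocarcinoma cell line, in 4 libraries. The 2 sh-MFAP2 libraries came from cells infected with a lentivirus that expresses a short hairpin RNA (shRNA) against MFAP2, which encodes a protein of extracellular microfibrils. The 2 control libraries came from cells infected with a scrambled control shRNA. Both groups were puromycin-selected AGS cells kept in DMEM with FBS, and only 1 shRNA sequence was used, so an effect of that sequence other than on MFAP2 cannot be told apart from an effect of losing MFAP2. The comparison asks which genes differ in level once MFAP2 is silenced. No source says whether the replicates were separate cultures, so the tests measure only the spread between these libraries.

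p53 is a transcription factor that accumulates after DNA damage and other stress and switches on genes for arrest, repair, metabolic control and death. MDM2 encodes the ubiquitin ligase that marks p53 for degradation, and because p53 switches on MDM2, the pair forms a negative feedback loop. CDKN1A encodes p21, an inhibitor of cyclin-dependent kinases through which p53 halts the cell cycle. AGS is generally described as a line with wild-type p53, so its target genes can be expressed without an added stimulus.

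The 20-base response element to which p53 binds is made of a pair of abutting decamers, each with a C and a G at its core. It was searched in RefSeq promoter windows of GRCh38.p14 that run from 250 bases before to 50 bases after an annotated start, requiring the core bases of both decamers and allowing at most 3 mismatches elsewhere. The consensus is the same on both strands, so 1 search covers both. Of the 35116 windows of all genes, 1.12% held a match. Of the 9 target genes, 6 had windows, 13 in all, of which 5 held a match. Some windows of a gene overlap, and the matches fell in 4 of those 6 genes. The matches are shown because they place the element within target genes whose levels are given further on, with the core C and G of each decamer in capitals.
MDM2, chr12:68808923-68808942, plus strand: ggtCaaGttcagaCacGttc
FAS, chr10:88991309-88991328, plus strand: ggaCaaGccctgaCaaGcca
SESN1, chr6:109009018-109009037, minus strand: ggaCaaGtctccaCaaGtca
GDF15, chr19:18386186-18386205, plus strand: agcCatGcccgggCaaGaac
The MDM2 and FAS matches had 2 mismatches each, and the SESN1 and GDF15 matches had 3 each. In GENCODE 29 the MDM2 match lay in an intron of all 7 transcripts that span it, 75 bases before the start of transcript ENST00000393415. The SESN1 match was intronic in both spanning transcripts. The FAS match lay in an exon, outside coding sequence, in 2 of 13 spanning transcripts and was intronic in the others. The GDF15 match lay in coding exon sequence of all 3 transcripts that span it. The windows of CDKN1A and SESN2 held no match, which says only that these letters are not in those windows. A match is a description of the sequence and not a measured binding site.

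Levels are given as FPKM, which divides a gene's fragments by its transcript length and by library depth, so that genes can be compared per length. The steps between low values imply about 27300000 to 37300000 fragments per library. These depths were inferred here and are not read counts of the authors. MFAP2 itself had a listed value of 0 under sh-MFAP2 in each replicate and of 0.0116 and 0.0138 FPKM under control. This is about 1.0 and 1.5 inferred fragments in the controls, under the floor of 3, so the labels could not be checked on the targeted gene. The paper reports a check of the knockdown in the stable line by western blot and quantitative PCR, apart from these libraries. The epithelial markers EPCAM, KRT8, KRT18, KRT19 and CLDN7 were all well above 1 FPKM, and their summed level ran from 1924 to 1961 FPKM in sh-MFAP2 and from 1779 to 2006 FPKM in controls. Most of that sum came from keratins, and CLDN7 was at 26.0 and 34.2 FPKM under sh-MFAP2 against 46.1 and 48.2 FPKM under control (limma adjusted p of 0.371). All 3 endothelial markers, 2 of 3 blood markers (PTPRC and CD3E) and 3 of 4 fibroblast markers (COL1A2, DCN and PDGFRB) were under 1 FPKM in every library. The remaining blood marker CD68 was at 3.13 and 3.12 FPKM in sh-MFAP2 against 7.85 and 7.20 in controls, and the remaining fibroblast marker COL1A1 at 2.27 and 2.07 against 4.36 and 4.92. None of CLDN7, CD68 and COL1A1 passed the test, and their part in the results was not tested.

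None of the 9 p53 target genes passed the test between sh-MFAP2 and control AGS cells. Of the 9 genes, 8 had a mean of at least 1 FPKM and were tested, and PHLDA3 was not. A gene was called where limma gave p under 0.01 and a Benjamini-Hochberg adjusted p under 0.05, which held for 27 of all 9873 genes tested (0.273%) and for 0 of the 8. At an unadjusted p under 0.05, 1 of the 8 was higher in sh-MFAP2 (GDF15) and 0 were lower, beside 3.89% of all genes that were higher and 8.41% that were lower. Of the 8, 4 had a higher and 4 a lower mean log2 level in sh-MFAP2, and their median log2 fold change was 0.0026, beside −0.05 over all genes tested. The groups did not overlap for 3 of them. GDF15 and SESN2 were above both controls in both sh-MFAP2 libraries, as were 17.5% of all genes, and TP53INP1 was below, as were 31.4% of all genes. After quantile normalization the split of all genes at an unadjusted p under 0.05 moved from 384 higher and 830 lower to 533 higher and 598 lower, and that of genes with no overlap from 1728 higher and 3104 lower to 2244 higher and 2486 lower. The signs of the 8 target genes, and the 3 that did not overlap, stayed as they were. In RNA of a whole culture, a lower level per cell and fewer cells expressing a gene cannot be told apart. In 5 of the 8, the replicates of at least 1 group lay further apart than the group means. The share of all genes with this pattern was not counted. Over all tested genes the median absolute replicate difference on the log2 scale was 0.204 in sh-MFAP2 and 0.113 in control. The median absolute group difference was 0.188.

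**Figure D1:**
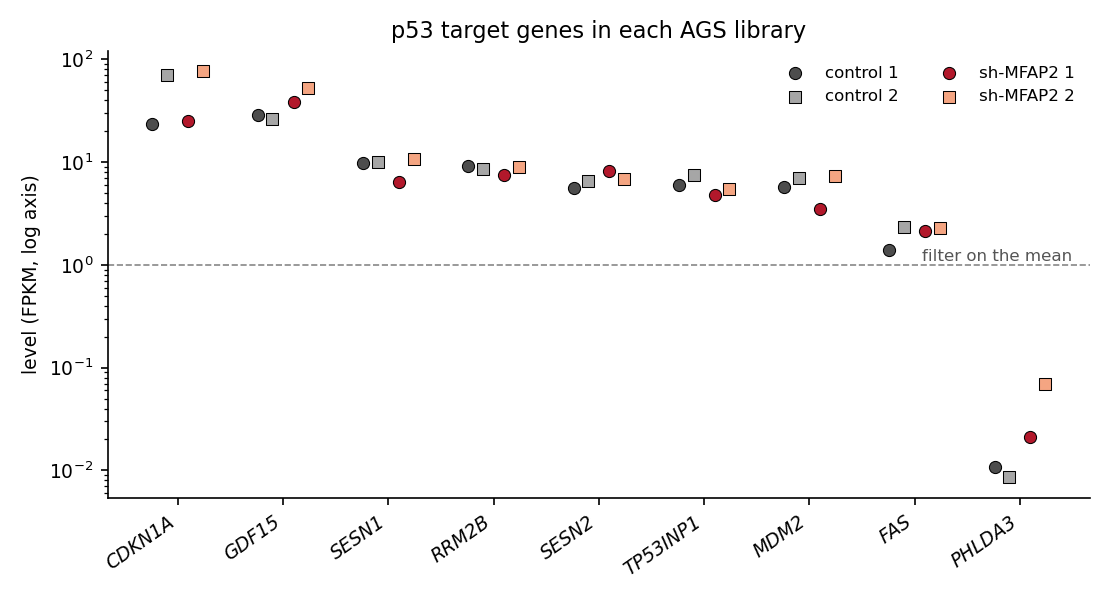
Level of each of the 9 p53 target genes in FPKM on a log axis, with 1 point per library (circles, replicate 1; squares, replicate 2; grey, control; red and orange, sh-MFAP2). CDKN1A is at 25.2 and 23.8 FPKM in the replicates 1 and at 77.0 and 70.7 FPKM in the replicates 2, GDF15 is higher in both sh-MFAP2 libraries, and PHLDA3 lies under the 1 FPKM line in every library.

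MDM2 (ENSG00000135679, chr12:68808176-68850686, plus strand), the negative regulator of p53, was at 3.50 and 7.30 FPKM under sh-MFAP2 (replicates 1 and 2) against 5.72 and 7.02 FPKM under control (replicates 1 and 2). The 2 sh-MFAP2 libraries enclosed the controls, with replicate 1 the lowest and replicate 2 the highest of the 4 libraries. The mean was 5.40 ± 2.68 FPKM (SD, n = 2) in sh-MFAP2 and 6.37 ± 0.92 FPKM in control. The log2 fold change was −0.26 with a standard error of 0.35, and the limma adjusted p was 0.752. The 95% interval of the log2 difference ran from −1.25 to 0.73, wide enough to hold a difference of more than 2-fold downward. The inferred depth behind these values was 1404 to 3454 fragments. The part of counting error in the gap between the 2 sh-MFAP2 libraries was not tested.

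The 3 tested genes whose profile over the 4 libraries was most like that of MDM2 were LGR5, TCEAL4 and RAB32, by the Euclidean distance between centred log2(FPKM + 1) values. Their distances were 0.05, 0.07 and 0.07 on the log2 scale. LGR5, which encodes a receptor of R-spondins, was at 19.6 and 36.9 FPKM under sh-MFAP2 against 29.4 and 34.2 FPKM under control. As for MDM2, sh-MFAP2 replicate 1 was the lowest library, which follows from the choice by profile.

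CDKN1A (ENSG00000124762, chr6:36676460-36687339, plus strand), the gene of the cell cycle inhibitor p21, had the highest mean FPKM of the 9 over the 4 libraries, at the percentile 93.0 of tested genes, although GDF15 was higher than it in both replicates 1. Its level was 25.2 and 77.0 FPKM under sh-MFAP2 (replicates 1 and 2) against 23.8 and 70.7 FPKM under control. The libraries separated by replicate number and not by shRNA, with replicate 2 at 3.05 times replicate 1 in sh-MFAP2 and at 2.97 times in control. Such a gap, replicate 2 at least 2 times replicate 1 in both groups, was found for 52 of 9873 tested genes (0.527%). Genes listed at 0 in a replicate 1, such as AC017116.11 below, have no such ratio and were left out of the 52. Gaps in the opposite direction were not counted. The criterion was set after the CDKN1A values were seen. The group means were 51.1 ± 36.6 FPKM (SD, n = 2) and 47.2 ± 33.2 FPKM, a log2 fold change of 0.10 with a standard error of 0.81 and a limma adjusted p of 0.967. The 95% interval of the log2 difference, −2.19 to 2.39, was the widest of the 8 genes, so that a change of CDKN1A in either direction could not be detected or bounded closely in these libraries.

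The profiles most like that of CDKN1A were those of AC017116.11, KLF3 and GEMIN7, at distances of 0.12, 0.28 and 0.39 on the log2 scale. KLF3, a transcriptional repressor, was at 1.70 and 6.66 FPKM under sh-MFAP2 against 2.14 and 7.10 FPKM under control. GEMIN7, a subunit of the SMN complex, was at 4.20 and 20.4 FPKM against 5.70 and 18.2 FPKM. Both had replicate 2 above replicate 1 in each group, which follows from their choice by likeness to CDKN1A. AC017116.11 was listed at 0 in both replicates 1, and at 2.34 FPKM in sh-MFAP2 replicate 2 and 1.85 FPKM in control replicate 2.

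GDF15 (ENSG00000130513, chr19:18374731-18389176, plus strand) encodes a secreted cytokine of the TGF-β superfamily that is released by stressed cells. Its level was 38.2 and 52.9 FPKM under sh-MFAP2 against 28.5 and 26.2 FPKM under control. Each sh-MFAP2 library exceeded each control, and the gap between the sh-MFAP2 libraries was wider than the gap from the lower of them to the higher control. The mean was 45.6 ± 10.4 FPKM (SD, n = 2) against 27.4 ± 1.61 FPKM, a ratio of 1.66. The log2 fold change was 0.70 with a standard error of 0.20 and a 95% interval of 0.13 to 1.26. Its limma adjusted p of 0.389 was the smallest of the 8 genes and did not pass the threshold.

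FAS (ENSG00000026103, chr10:88990582-89015785, plus strand), which encodes a death receptor on the cell surface, was at 2.14 and 2.26 FPKM under sh-MFAP2 against 1.41 and 2.36 FPKM under control. The groups overlapped, with control replicate 1 lowest and control replicate 2 highest. The log2 fold change was 0.17 with a standard error of 0.20 and a limma adjusted p of 0.720. Exons of FAS share 380 bases with ACTA2, the gene of smooth muscle actin, on the opposite strand. ACTA2 was at 2.55 and 2.62 FPKM under sh-MFAP2 against 1.24 and 1.28 FPKM under control. Whether the libraries kept strand is not given in the sources used here, and the part of ACTA2 reads in the FAS values was not tested. Of the other target genes, MDM2, CDKN1A, SESN1 and PHLDA3 also share exon bases with annotated genes, of which the one with the highest listed value, CPM on the strand opposite to MDM2, reached 0.0352 FPKM. The antisense gene DINOL, which shares 146 bases with CDKN1A, was not analysed here.

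SESN1 and SESN2 encode sestrins, stress-induced proteins that restrain the kinase complex mTORC1, and SESN2 is also a known target of the stress factor ATF4. SESN1 (ENSG00000080546, chr6:108986437-109094819, minus strand) was at 6.41 and 10.7 FPKM under sh-MFAP2 against 9.80 and 10.0 FPKM under control. The groups overlapped, and sh-MFAP2 replicate 1 was again the lowest library, as it was for MDM2. This gave a log2 fold change of −0.23 with a standard error of 0.26 and a limma adjusted p of 0.710.

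SESN2 (ENSG00000130766, chr1:28259527-28282491, plus strand) was at 8.24 and 6.87 FPKM under sh-MFAP2 against 5.58 and 6.52 FPKM under control. Each sh-MFAP2 library exceeded each control, by a margin smaller than the gap within either group. limma gave a log2 fold change of 0.28 with a standard error of 0.15, a 95% interval of −0.14 to 0.69 and an adjusted p of 0.496. SESN2 has a single transcript in the deposited table.

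RRM2B (ENSG00000048392), on chromosome 8, encodes the p53-inducible small subunit of ribonucleotide reductase, which supplies deoxynucleotides for DNA repair. It was at 7.46 and 9.0 FPKM under sh-MFAP2 against 9.08 and 8.60 FPKM under control, with sh-MFAP2 replicate 1 lowest and the groups overlapping. On the log2 scale the fold change was −0.10 with a standard error of 0.13 and a limma adjusted p of 0.763. Its 95% interval, −0.47 to 0.28, was the narrowest of the 8 genes.

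TP53INP1 (ENSG00000164938), also on chromosome 8, encodes a stress-induced protein that takes part in autophagy and in cell death. It was at 4.74 and 5.45 FPKM under sh-MFAP2 against 6.03 and 7.48 FPKM under control. Both sh-MFAP2 libraries lay below both controls, and the gap between the groups was smaller than the gap within either group. This gave a log2 fold change of −0.34 with a standard error of 0.15, a 95% interval of −0.77 to 0.08 and a limma adjusted p of 0.441.

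PHLDA3 (ENSG00000174307, chr1:201464383-201469237, minus strand), which encodes a pleckstrin-homology protein that opposes AKT, was at 0.0210 and 0.0693 FPKM under sh-MFAP2 against 0.0108 and 0.0085 FPKM under control. These values correspond to about 2.0 and 5.93 inferred fragments in sh-MFAP2 and 1.0 and 1.0 in control. With 3 of the 4 libraries under the floor of 3 fragments, no fold change is given. PHLDA3 was thus the 1 gene of the 9 that was close to undetected in AGS cells.

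**Figure D2:**
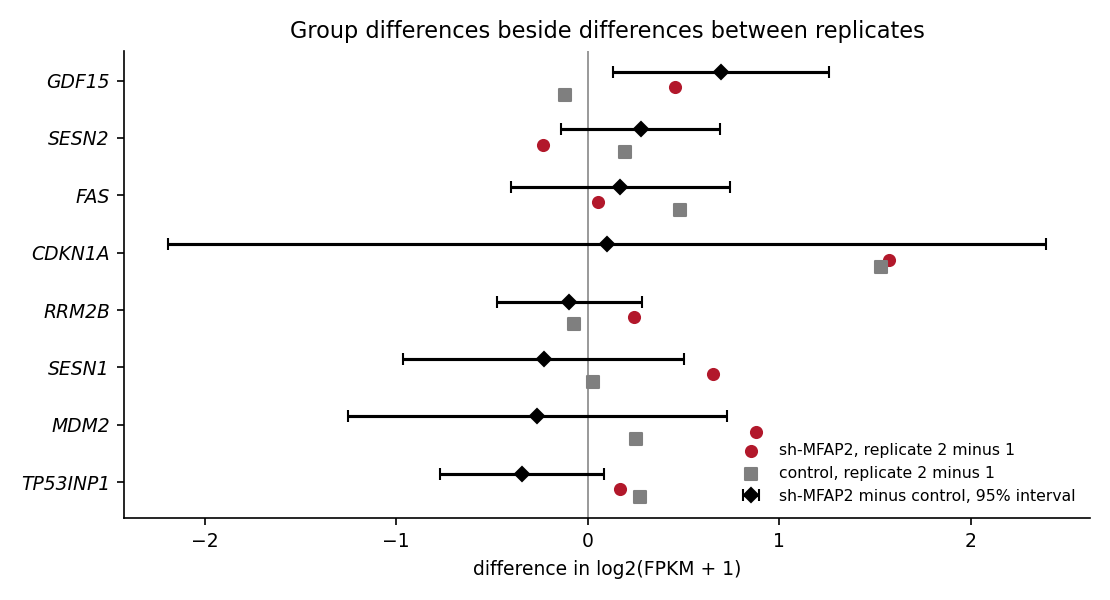
Difference in log2(FPKM + 1) for the 8 tested genes, as sh-MFAP2 minus control with its 95% interval from limma (black diamonds) and as replicate 2 minus replicate 1 within sh-MFAP2 (red circles) and within control (grey squares). The intervals include 0 for 7 genes and not for GDF15, and the replicate differences of CDKN1A, 1.57 and 1.53, are far larger than its group difference of 0.10.

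The transcript table lists 77 transcripts of the 9 genes, of which 19, from 8 genes, had a mean of at least 1 FPKM and were tested among 22312 transcripts. None of the 19 passed the test, and none of the 22312 did (0%). At an unadjusted p under 0.05, 0 of the 19 were higher and 1 was lower in sh-MFAP2, beside 3.22% and 4.41% of all transcripts. Groups without overlap were common: sh-MFAP2 was the higher group for 5 of the 19 and the lower for 4. Over all 22312 transcripts this held for 3966 and 5557. In the other 10 of the 19 the groups overlapped. Isoforms of a gene share bases, so that transcript values depend on how the authors' program divided the fragments. The gene values do not, since each was the summed fragments of the transcripts over 1 gene length shared by the 4 libraries, such as 2087 bases for GDF15 and 13186 for MDM2.

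MDM2 has an upstream promoter and an internal one, and the p53 response element shown above stands before the internal one. The transcript ENST00000258149 (12633 bases, start at 68808176), from the upstream start, took 92.2% to 96.3% of the MDM2 fragments and was at 3.43 and 7.34 FPKM under sh-MFAP2 against 5.55 and 6.75 FPKM under control. The transcript ENST00000393415 (842 bases, start at 68809017), from the internal start, was at 1.1 and 0.68 FPKM under sh-MFAP2 against 3.18 and 4.81 FPKM under control. Both sh-MFAP2 values of this transcript lay below both controls, with a log2 fold change of −1.40, a standard error of 0.28 and a limma adjusted p of 0.433. It was the 1 transcript at an unadjusted p under 0.05, and its values rest on about 28.1 and 15.5 inferred fragments in sh-MFAP2 and 79.1 and 151 in control. The other transcript from the internal start, ENST00000393416 (754 bases, start at 68809024), did not share this pattern, at 0.82 and 1.79 FPKM under sh-MFAP2 against 1.11 and 1.45 FPKM under control. Its groups overlapped.

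The SESN1 transcript ENST00000356644 (start at 109009555) was at 7.18 and 16.1 FPKM under sh-MFAP2 against 15.4 and 17.2 FPKM under control. The transcript ENST00000436639, from the far upstream start at 109094819, was at 3.66 and 2.98 FPKM under sh-MFAP2 against 2.15 and 1.35 FPKM under control. The groups overlapped for the former and did not for the latter, which was higher in both sh-MFAP2 libraries with a log2 fold change of 0.66, a standard error of 0.25 and a limma adjusted p of 0.668. The SESN1 p53 match lies downstream of both starts.

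The GDF15 fragments were divided between a pair of transcripts. ENST00000252809 (1200 bases, start at 18386158) was at 35.9 and 60.3 FPKM under sh-MFAP2, was at 20.5 FPKM in control replicate 1, and was listed at 0 in control replicate 2. ENST00000595973 (890 bases, start at 18382170) was at 41.0 and 42.7 FPKM under sh-MFAP2 against 39.3 and 61.5 FPKM under control. In control replicate 2 the whole of GDF15 was thus assigned to the shorter transcript, while the value of the gene in that library, 26.2 FPKM, was close to the other control.

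**Figure D3:**
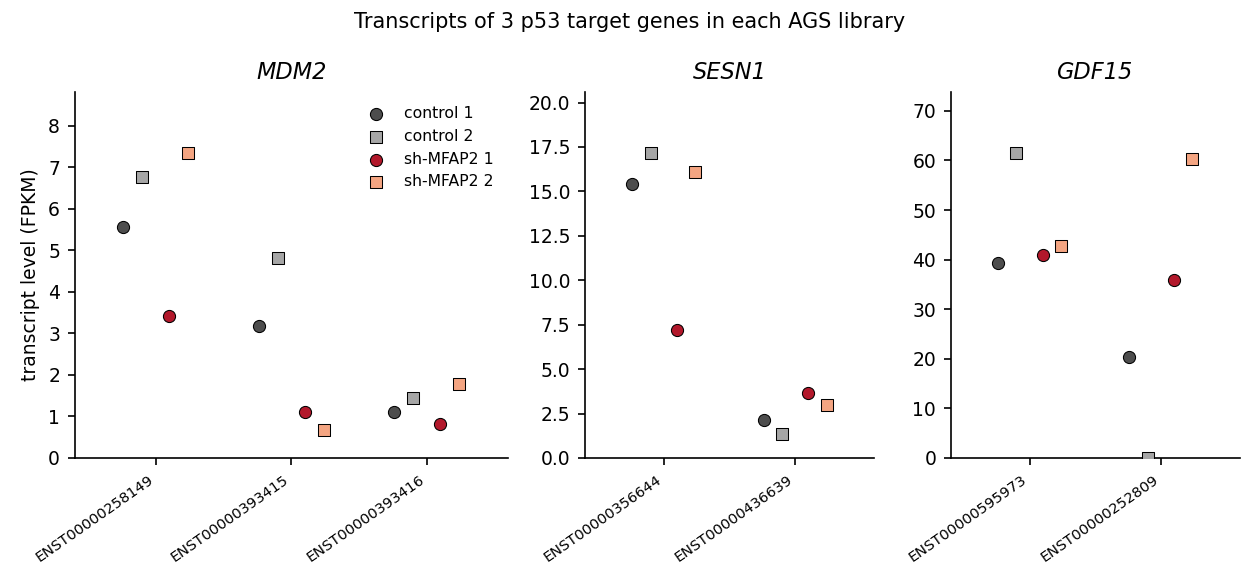
Transcript level in FPKM (axes from 0) for the tested transcripts of MDM2, SESN1 and GDF15, with 1 point per library and the same colours as in the plot of levels by library. The internal-start transcript ENST00000393415 of MDM2 does not exceed 1.1 FPKM under sh-MFAP2 and is at least 3.18 FPKM under control, and ENST00000252809 of GDF15 is listed at 0 in control replicate 2.

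The CDKN1A transcript ENST00000244741 took 85.2% to 91.3% of the fragments of its gene and was at 31.5 and 97.3 FPKM under sh-MFAP2 against 30.3 and 84.3 FPKM under control. The second, ENST00000405375, was at 2.39 and 7.55 FPKM under sh-MFAP2 against 1.95 and 11.6 FPKM under control. Replicate 2 was thus above replicate 1 in both groups in each of these transcripts. The third, ENST00000373711, was at 1.84 and 2.39 FPKM against 1.13 and 3.03 FPKM.

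Of TP53INP1, the transcript ENST00000448464 was at 2.78 and 3.59 FPKM under sh-MFAP2 against 4.51 and 5.05 FPKM under control, with groups that did not overlap. The other, ENST00000342697, was at 1.99 and 1.90 FPKM against 1.57 and 2.49 FPKM, with groups that did. The FAS transcript ENST00000355740 was at 1.46 and 1.98 FPKM under sh-MFAP2 against 0.40 and 1.38 FPKM under control, and both sh-MFAP2 values were above both controls. A pair of other FAS transcripts had lower values in sh-MFAP2 than in control, with no overlap. ENST00000626542 was at 1.08 and 0.51 FPKM against 1.16 and 1.52 FPKM, and ENST00000615406 at 1.05 and 0.44 FPKM against 1.13 and 1.49 FPKM. The values of this pair rest on 13.4 to 61.7 inferred fragments per library, and neither transcript had a position in the annotation used here. The groups overlapped for ENST00000612663, at 0.92 and 1.37 FPKM against 0.88 and 1.15 FPKM. RRM2B was carried almost whole by ENST00000251810, at 8.0 and 9.51 FPKM against 9.51 and 8.84 FPKM. None of these transcripts passed the test.

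Other targets of p53 were described from a list of 47 genes grouped by role, all of which had a row. Of these, 38 were tested, 21 with a higher and 17 with a lower mean log2 level in sh-MFAP2, and limma called 0. At an unadjusted p under 0.05, 3 were higher and 3 were lower, beside 3.89% and 8.41% of all genes. The median log2 fold change of the 38 was 0.01, beside −0.05 over all genes tested. The median was 0.04 for 11 genes of arrest and feedback, −0.03 for 11 tested genes of apoptosis, −0.01 for 5 genes of DNA repair, 0.19 for 7 tested genes of metabolism and autophagy and 0.04 for 4 tested genes of membrane and secreted proteins. Scaling by median of ratios turned the medians of apoptosis and DNA repair to 0.03 and 0.04, beside 0.0025 over all genes. With 1 library left out, none of the 5 medians kept its sign: arrest and feedback ranged from −0.0278 to 0.0519, apoptosis from −0.21 to 0.0438, DNA repair from −0.0455 to 0.025, metabolism and autophagy from −0.0346 (without sh-MFAP2 replicate 2) to 0.462 (without sh-MFAP2 replicate 1), and membrane and secreted proteins from −0.0545 to 0.071. At a mean of at least 5 FPKM the median for metabolism and autophagy was 0.714.

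The 3 that were higher at an unadjusted p under 0.05 were BAX, PIDD1 and FDXR. BAX, which permeabilizes mitochondria in apoptosis, was at 69.4 and 62.5 FPKM under sh-MFAP2 against 48.2 and 48.9 FPKM under control (limma adjusted p of 0.370). PIDD1, a scaffold of caspase-2 activation, was at 3.60 and 3.13 FPKM against 2.25 and 2.22 FPKM (limma adjusted p of 0.368). FDXR, a mitochondrial ferredoxin reductase, was at 13.4 and 12.5 FPKM against 9.47 and 8.16 FPKM (limma adjusted p of 0.352). In each the sh-MFAP2 libraries exceeded the controls, and the threshold was not passed.

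The 3 that were lower were CCNG1, POLK and KITLG. CCNG1, the gene of cyclin G1, was at 41.1 and 32.9 FPKM under sh-MFAP2 against 59.1 and 59.1 FPKM under control (limma adjusted p of 0.341). POLK, a translesion DNA polymerase, was at 1.06 and 1.41 FPKM against 2.01 and 1.89 FPKM (limma adjusted p of 0.395). KITLG, the ligand of the KIT receptor, was at 0.81 and 1.14 FPKM against 1.71 and 2.08 FPKM (limma adjusted p of 0.371). These too had groups that did not overlap and did not pass the threshold.

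Of 23 genes that regulate p53, 22 were tested, 6 with a higher and 16 with a lower mean log2 level in sh-MFAP2. Both sh-MFAP2 libraries lay above both controls for 2 and below for 9, beside 17.5% and 31.4% of all genes. After scaling by median of ratios they lay above for 4 and below for 7, beside 2345 and 2483 of all 9873 genes. The median over these regulators was −0.10 on the log2 scale, beside −0.05 over all genes, with 0 called. After quantile normalization it was −0.04, beside −8.7e-05 over all genes. After scaling by median of ratios it was −0.05, beside 0.0025 over all genes. DYRK2, a kinase that phosphorylates p53, was at 3.56 and 4.26 FPKM under sh-MFAP2 against 0.60 and 0.26 FPKM under control. The log2 fold change of DYRK2 was 1.79 with a standard error of 0.18, and its limma adjusted p, 0.133, was the smallest in these pathway lists but did not pass the threshold. TP53BP2, which encodes the p53-binding protein ASPP2, was at 7.91 and 7.61 FPKM against 10.2 and 10.1 FPKM (limma adjusted p of 0.389).

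Paralogs of the target genes were covered by a list of 11 genes. TP63 and TP73 of the p53 family, the p21 relative CDKN1C and SESN3 were below a mean of 1 FPKM, and the other 7 were tested with 0 called and 0 at an unadjusted p under 0.05. CDKN1B, the gene of the p21 relative p27, was at 17.1 and 3.23 FPKM under sh-MFAP2 (replicates 1 and 2) against 23.3 and 3.58 FPKM under control (replicates 1 and 2). As for CDKN1A, its libraries separated by replicate number, but in the opposite direction, with replicate 1 at 5.29 times replicate 2 in sh-MFAP2 and at 6.52 times in control. PHLDA2 was at 3.26, 39.0, 4.58 and 3.89 FPKM in the same order, so that sh-MFAP2 replicate 2 alone stood apart. PHLDA1 was at 4.87 and 4.96 FPKM against 5.08 and 7.76 FPKM.

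MDM4, the relative of MDM2 that blocks p53 without degrading it, was at 1.28 and 1.85 FPKM under sh-MFAP2 against 1.95 and 1.49 FPKM under control. The replicative subunits of ribonucleotide reductase overlapped between groups, RRM2 at 43.8 and 58.8 FPKM against 54.3 and 59.0 FPKM and RRM1 at 65.0 and 47.3 FPKM against 52.2 and 52.0 FPKM. TP53INP2 was at 5.38 and 4.23 FPKM against 4.74 and 5.20 FPKM.

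Genes of the cell cycle that p53 represses through p21 and the DREAM complex were all tested, 18 in number. Under sh-MFAP2, 3 had a higher and 15 a lower mean log2 level, or 5 and 13 after scaling by median of ratios. The median log2 fold change was −0.18, beside −0.05 over all genes, with 0 called. That median was −0.11 after this scaling, beside 0.0025 over all genes. It was −0.0838 without sh-MFAP2 replicate 1 and −0.304 without sh-MFAP2 replicate 2, beside −0.033 and −0.069 over all genes. At an unadjusted p under 0.05, 0 of the 18 were higher and 3 were lower, beside 3.89% and 8.41% of all genes. TOP2A, a DNA topoisomerase, was at 78.4 and 64.9 FPKM under sh-MFAP2 against 101 and 102 FPKM under control (limma adjusted p of 0.382). CENPF, a kinetochore protein, was at 22.2 and 23.1 FPKM against 28.7 and 29 FPKM (limma adjusted p of 0.394), and CCNA2, the gene of cyclin A2, was at 35.5 and 38.5 FPKM against 45.9 and 46.6 FPKM (limma adjusted p of 0.401). Both sh-MFAP2 libraries lay below both controls for 9 of the 18, beside 31.4% of all genes. After scaling by median of ratios they lay below for 7 of the 18, beside 2483 of all 9873 genes. They lay above for 0 of the 18 before this scaling and for 3 after it, beside 1728 and 2345 of all genes.

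ATF4 and other genes of the integrated stress response, the second route to SESN2, numbered 20, of which 16 were tested, 9 with a higher and 7 with a lower mean log2 level in sh-MFAP2. The median log2 fold change was 0.04, and −0.0365 without sh-MFAP2 replicate 1, and limma called 0. ASNS, the asparagine synthetase induced by ATF4, was at 6.74 and 6.34 FPKM under sh-MFAP2 against 4.58 and 4.49 FPKM under control (limma adjusted p of 0.341). CEBPB, a transcription factor, had a listed value of 0 under sh-MFAP2 in each replicate and was at 3.15 and 5.46 FPKM under control (limma adjusted p of 0.137). RRAGA, a GTPase of mTORC1 signalling, was listed at 0 in 3 libraries and at 35.8 FPKM in sh-MFAP2 replicate 2. Whether an exact 0 in these data stands for absent RNA or for a missing estimate was not tested, so no fold change is given for CEBPB.

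Of 11 genes of the death receptor pathway of FAS, 9 were tested, with 0 called and 0 at an unadjusted p under 0.05. Their median log2 fold change was −0.05, which scaling by median of ratios turned to 0.01, beside 0.0025 over all genes. With 1 library left out it ranged from −0.144 to −0.00464. FASLG, the ligand of FAS, was listed at 0 in every library. Of 21 partners of the sestrins (the GATOR complexes, the Rag GTPases and AMPK), 18 were tested with 0 called. Of the 18, 6 had a higher and 12 a lower mean log2 level in sh-MFAP2, or 9 and 9 after scaling by median of ratios. PRKAA1 and MIOS were the 2 that were lower at an unadjusted p under 0.05, and 0 were higher, beside 8.41% and 3.89% of all genes. Both sh-MFAP2 libraries lay above both controls for 0 and below for 6, beside 17.5% and 31.4% of all genes. The median of the 18 was −0.06, close to the −0.05 of all genes. Quantile normalization and scaling by median of ratios both brought it to −0.01, beside −8.7e-05 and 0.0025 over all genes. PRKAA1, a catalytic subunit of AMPK, was at 5.87 and 6.96 FPKM under sh-MFAP2 against 9.14 and 8.32 FPKM under control (limma adjusted p of 0.398). MIOS, a subunit of GATOR2, to which sestrins bind, was at 7.23 and 6.94 FPKM against 8.70 and 9.04 FPKM (limma adjusted p of 0.403).

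**Figure D4:**
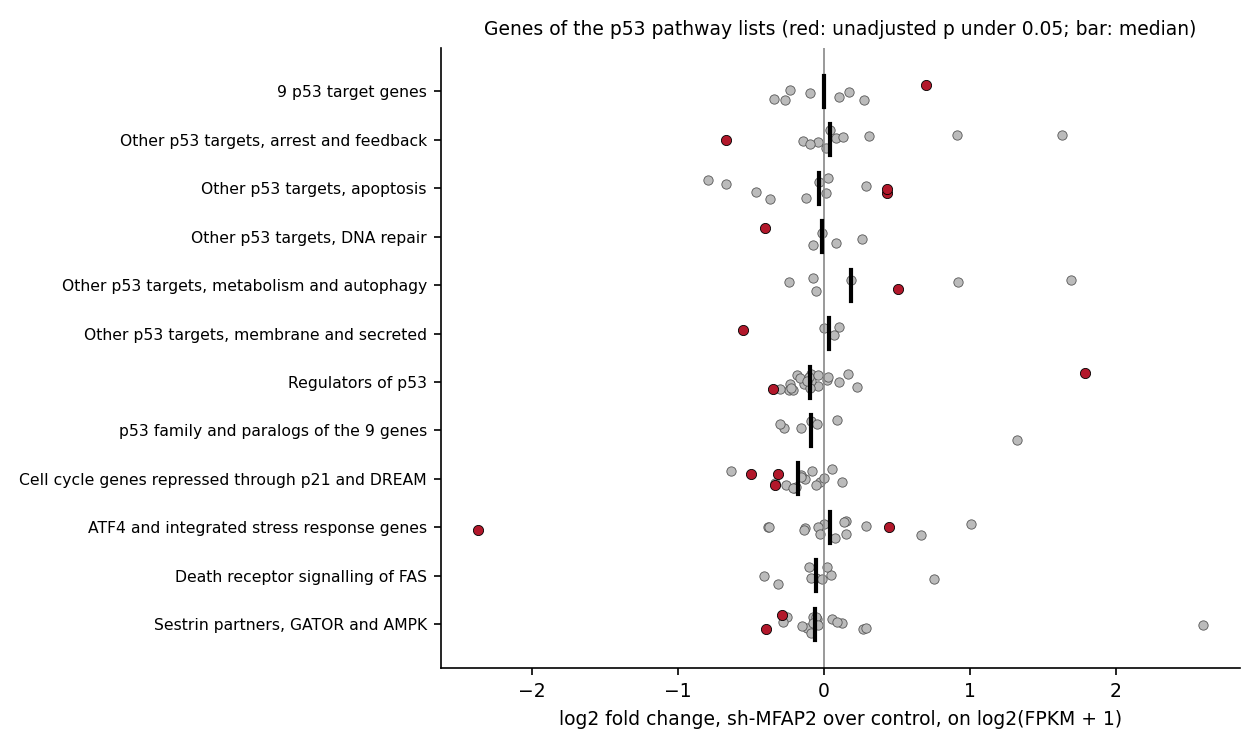
Log2 fold change (sh-MFAP2 over control, on log2(FPKM + 1)) of every tested gene of the 9 p53 target genes and of each pathway list, with 1 point per gene, red where the unadjusted p was under 0.05, and a black bar at the median of the list. Medians run from −0.18 for cell cycle genes repressed through p21 and DREAM to 0.19 for targets of metabolism and autophagy (−0.0346 for the latter without sh-MFAP2 replicate 2), no gene was called, and the point furthest left, CEBPB, and furthest right, RRAGA, rest on libraries listed at 0.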

How the data were processed

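RNA-seq of AGS cells was analysed from tables deposited by the authors, 1 of genes and 1 of transcripts, with 1 value for each of 4 libraries (2 sh-MFAP2, 2 control). The deposited values are taken as FPKM, since the tables do not name their unit and their low values lie on steps of fragments over length. The submitters' processing notes name hg38. The aligner, the estimating program, the annotation and the strand setting are not given in the sources used here. Groups were taken from the sample labels.

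Genes and transcripts with a mean of at least 1 FPKM were tested on log2(FPKM + 1) in limma 3.58.1 (R 4.3.3) with lmFit, eBayes with a variance trend and Benjamini-Hochberg adjustment, over all features. Fold changes on this scale understate the change of low genes. Features with p under 0.01 and adjusted p under 0.05, the thresholds of the study, were called. The fit was tested on simulated data.

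Depth was inferred from the most frequent product of FPKM and length among single-transcript features longer than 1000 bases, read as 1 fragment. Only 62.3% to 63.1% of low values lay within 0.05 of a whole read, so no count test was used and intervals for counting error are not given. Positions are from GENCODE 29 (GRCh38), and 3 list genes were matched by identifier under an older name. Table handling used pandas 2.3.3 and numpy 2.4.6 under Python 3.11.15, and plots used matplotlib 3.10.9.

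The 9 genes and all lists were chosen with earlier results of these data known. Named in full are the 9 genes and their paralogs. Of each other list, genes that were called and up to 6 at an unadjusted p under 0.05 are named, and for MDM2 and CDKN1A the 3 genes of most similar profile. Of each target gene, at most 4 transcripts with a mean of at least 1 FPKM could be described. By this rule 1 further gene would be named, and its values are left out. Alternatives were no filter on low values, a mean of at least 5 FPKM (0.2 FPKM for transcripts), the omission of each library in turn, gene values summed from transcripts, a smaller pseudocount (0.1), median-of-ratios scaling, quantile normalization, a block for the replicate number, other thresholds and eBayes without a trend.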

Additional observations from a re-analysis of the deposited data

How the results depend on the processing

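The number of p53 target genes called was 0 under every alternative run with the same thresholds, and 0 at an adjusted p under 0.1 alone. With an unadjusted p under 0.05 alone it was 1, GDF15. Of their transcripts, 0 were called under every alternative run. The replicate number as a block (replicate block) also left 0 target genes called, and over all genes it lowered the calls from 27 to 0. Over all tested genes, the deviations of same-numbered libraries from their group means correlated at −0.0572. With 2 libraries per group this is a single value. It cannot decide whether same-numbered libraries shared a culture or a batch. Over all genes, 6 were called with no filter on low values and 9 at a mean of at least 5 FPKM, and 0 whenever 1 library was left out. At the transcript level 5 of all transcripts were called with a pseudocount of 0.1. With a mean of at least 0.2 FPKM, quantile normalization or the replicate block, 0 of all transcripts were called. The 0 for transcripts of the target genes therefore says little under those settings.

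The median log2 fold change of the target genes ran from −0.322 to 0.17 when 1 library was left out, where the lone library of a group was assumed to vary like the other group, and was −0.0966 at a mean of at least 5 FPKM, so its sign rests on single libraries and on the filter. GDF15, SESN2 and TP53INP1 kept their signs under all alternatives run. As the groups of these genes did not overlap, leaving out 1 library could not turn their signs. With 1 library left out, CDKN1A ranged from −0.685 to 0.889, MDM2 from −0.704 to 0.178, SESN1 from −0.557 to 0.0991, RRM2B from −0.217 to 0.0238 and FAS from −0.0693 to 0.413. MDM2, SESN1 and RRM2B changed sign without sh-MFAP2 replicate 1, FAS without control replicate 1, and CDKN1A without either sh-MFAP2 replicate 2 or control replicate 1. With transcripts summed, FAS was at −0.019. Among paralogs, signs also turned when 1 library was left out, where MDM4 ranged from −0.251 to 0.0745, CDKN1B from −1.48 to 0.934, RRM2 from −0.364 to 0.055, RRM1 from −0.137 to 0.314, TP53INP2 from −0.189 to 0.0961 and PHLDA2 from −0.294 to 2.94. The sign of TP53INP2 turned under quantile normalization (0.0366) and scaling by median of ratios (0.0101). The cause of these changes was not tested. With 2 libraries per group, the 95% intervals of 7 of the 8 tested target genes included a change of 1.5-fold in some direction.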

Other observations

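Several genes of the p53 and stress lists were low in control replicate 1 alone. They were picked out after their values were seen, and none passed the test. BTG2, an antiproliferative p53 target, was at 4.12 and 19.5 FPKM in the controls, beside 19.8 and 16.9 FPKM in sh-MFAP2. SCO2, an assembly factor of cytochrome c oxidase, was at 2.04 and 16.9 FPKM in the controls and at 21.1 and 24.7 FPKM in sh-MFAP2. DRAM1, a lysosomal protein of autophagy, was at 2.97 and 10.9 FPKM in the controls and at 11.9 and 12.1 FPKM in sh-MFAP2. The transcription factor ATF4 was at 39.8 and 96.6 FPKM in the controls against 125 and 128 FPKM in sh-MFAP2. Of the 9 target genes, CDKN1A, SESN2 and FAS had their lowest value in control replicate 1, at 23.8, 5.58 and 1.41 FPKM. CDKN1A was not low there alone, with 25.2 FPKM in sh-MFAP2 replicate 1. MDM2, SESN1, RRM2B and TP53INP1 were lowest in sh-MFAP2 replicate 1, and GDF15 and PHLDA3 in control replicate 2. The share of all genes that were lowest in each library was not counted.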
